A study of Mus musculus with 2 samples.

Results

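Transcript levels of 9 genes that write or read histone acetylation were examined in differentiating mouse erythroid cells. The genes were the bromodomain and extra-terminal (BET) readers Brd2 and Brd3, the coactivator acetyltransferases Ep300 (p300) and Crebbp (CBP), the GCN5 and PCAF acetyltransferases Kat2a and Kat2b, and the MYST acetyltransferases Kat5 (TIP60), Kat7 (HBO1) and Kat8 (MOF). They were chosen by name, though with earlier results of these data known, and all 9 were found among the 55536 mouse genes of the gene table. Apart from Brdt, further members of these families are not analysed here. Paired-end reads came from polyadenylated RNA of G1E-ER4 cells, an immortalized line derived from Gata1-null erythroid precursors in which a fusion of GATA1 with an estrogen receptor domain restores GATA1 activity once estradiol is added. All cells had received 10 nM 17beta-estradiol for 24 h, which sets off erythroid differentiation. The series held 1 group of 2 libraries, numbered as biological replicates 1 and 2, which share a single biosample record, so their spread may be technical. There was no untreated or parental sample: the values are levels in treated cells, no change with GATA1 can be read from them, and no test between conditions was possible.

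Acetylation of lysines on histone tails loosens chromatin and creates docking sites for bromodomains. BET proteins carry a pair of bromodomains and couple acetylated promoters and enhancers to transcription elongation. In erythroid cells CBP and p300 act as coactivators of GATA1 and acetylate it, and BRD3 binds the acetylated GATA1 protein. The KAT2 and MYST enzymes work as the catalytic subunits of multiprotein complexes: SAGA and ATAC for KAT2A and KAT2B, the NuA4-type TIP60 complex for KAT5, BRPF and JADE scaffolds for KAT7, and the MSL and NSL complexes for KAT8.

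Replicate 1 held 71485617 expected counts, which are estimated fragments, against 14121747 for replicate 2, a 5.06-fold difference in depth. The 9 genes held 74586 of these counts in replicate 1 and 17218 in replicate 2. Of 17 lineage markers examined, the 6 erythroid ones were all present. The lowest of them was Alas2, which encodes the erythroid enzyme that starts heme synthesis. It was at 304 TPM (transcripts per 1000000) in replicate 1 and 69.0 TPM in replicate 2. Gata1, another of the 6, was at 2890 and 2661 TPM. The introduced GATA1 fusion can supply that RNA, so the presence of Gata1 does not bear on cell type. Among the 11 markers of mast, myeloid, lymphoid, megakaryocytic, endothelial and stromal cells, Itga2b was at 3.17 and 2.96 TPM, and the other 10 were at no more than 0.17 TPM in either library. In bulk RNA, fewer cells that express a gene and less RNA per cell cannot be told apart.

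All 9 genes were detected, at 1 TPM or more in both libraries, against 33.1% of 22028 protein-coding genes. TPM corrects for transcript length, so levels can be set side by side between genes. Brd2 was the most abundant, at 113 TPM in replicate 1 against 201 in replicate 2, which placed it above 95.4% and 97.1% of protein-coding genes. Kat8 was the least abundant, at 3.84 and 1.29 TPM, above 70.1% and 66.9% of protein-coding genes. The mean levels ran in the order Brd2, Kat5, Brd3, Ep300, Kat7, Crebbp, Kat2a, Kat2b and Kat8. Of the 8 pairs of neighbours in that order, 4 had values that did not overlap between the genes: Brd2 above Kat5, Ep300 above Kat7, Kat7 above Crebbp, and Kat2b above Kat8. Kat5 and Brd3 overlapped although Kat5 was higher in each library, and the pairs Brd3 and Ep300, Crebbp and Kat2a, and Kat2a and Kat2b changed places between the libraries.

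**Figure D1:**
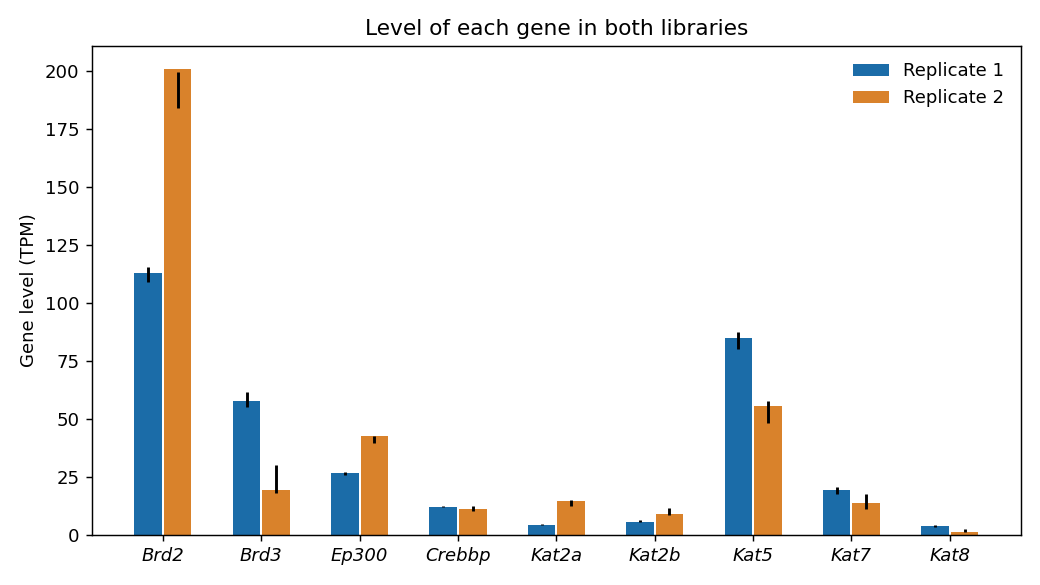
Gene level in TPM (linear axis from 0) of the 9 genes in replicate 1 (blue) and replicate 2 (orange). Black lines are the authors' intervals around the posterior mean, so a bar's top can lie outside its line. Brd2 stands highest in both libraries, and the lines of a gene overlap between libraries for Crebbp alone.

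Brd2, a BET reader encoded on chromosome 17 (chr17:34112023-34122634, minus strand, mm10), averaged 157 ± 62.3 TPM (SD, n = 2), and its 30060 and 8487 expected counts made it the best sampled of the 9. Brd3, on chromosome 2 (chr2:27445579-27507662, minus strand), was at 57.6 TPM in replicate 1 against 19.4 in replicate 2 and averaged 38.6 ± 27.0 TPM (SD, n = 2), from 9214 and 575 expected counts. Brd2 was above Brd3 in both libraries, by 0.97 log2 units in replicate 1 and 3.37 in replicate 2, on average 2.17 ± 1.70 (SD, n = 2). The direction was shared, but the fold was 1.96 in replicate 1 against 10.3 in replicate 2: replicate 1 was the lower library for Brd2, at a log2 ratio of -0.83, and the higher one for Brd3, at 1.57. These directions depended in part on the table and its scale. Read-based values as deposited put Brd2 at 106 and 91.6 TPM, a log2 ratio of 0.21, while Brd3 kept its direction at 1.26. Rescaled over nuclear protein-coding genes, Brd3 was at 124 and 161 TPM, a log2 ratio of -0.37, while Brd2 kept its direction at -1.42. Brdt, the testis BET gene, was undetected at 0.04 and 0.11 TPM.

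Which Brd2 RNA was counted differed between the libraries. Of 19 annotated Brd2 transcripts, 4 held 10% or more of the gene's TPM in either library. Brd2-201, which encodes the full protein, was at 42.4 and 52.1 TPM, a difference smaller than that of the gene total. Brd2-207, annotated as a target of nonsense-mediated decay, was at 44.0 TPM in replicate 1, against 3.74 TPM in replicate 2. The other forms were high in replicate 2 and low in replicate 1. Brd2-206, whose annotated coding sequence stops short, was at 5.08 and 90.1 TPM, and Brd2-216, a retained-intron RNA, was at 2.49 and 38.1 TPM. Together the 3 complete coding transcripts of Brd2 were at 42.5 and 52.1 TPM, or 37.7% and 26.0% of the gene. H2-DMa, on the opposite strand, covers 360 bases of Brd2-201, Brd2-206 and Brd2-207 with its exons and was at 1.06 and 0.53 TPM.

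Brd2-207 differs from Brd2-201 within the coding region by an extra exon of 92 bases (chr17:34116598-34116689, minus strand, mm10, GENCODE M21). Since 92 leaves a remainder of 2 when divided by 3, the exon shifts the reading frame. The frame reaches a TAA stop codon at base 17 of the following exon, after 146 codons against 798 codons in Brd2-201, with 9 exon junctions still to come. Exons of this kind are known as poison exons. The sequence from the first base of the exon to that stop codon, which is in capitals, shows where the frame ends:
Brd2-207 exon and stop: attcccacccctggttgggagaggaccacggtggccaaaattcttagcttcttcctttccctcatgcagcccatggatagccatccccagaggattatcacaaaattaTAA
Among transcripts that either include the exon or join its neighbours without it, inclusion was 48.1% of TPM in replicate 1 and 2.56% in replicate 2. In the table the authors made directly from reads it was 18.0% and 7.86%. Replicate 1 had the higher inclusion in both tables, but its size depended on the method, with a mean of 25.3% by alignment and 12.9% from reads. Brd2-207 is the only annotated transcript with the exon, so inclusion here is the estimated share of that form, not a count of exon reads. Brd2-207 also has another first exon (chr17:34120195-34120411) than Brd2-201 (chr17:34122162-34122600). The part of that first exon in the estimate was not tested. The read-based table also put Brd2-206 at 3.52 and 2.38 TPM, so its high level in replicate 2 was seen by the alignment-based method alone.

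**Figure D2:**
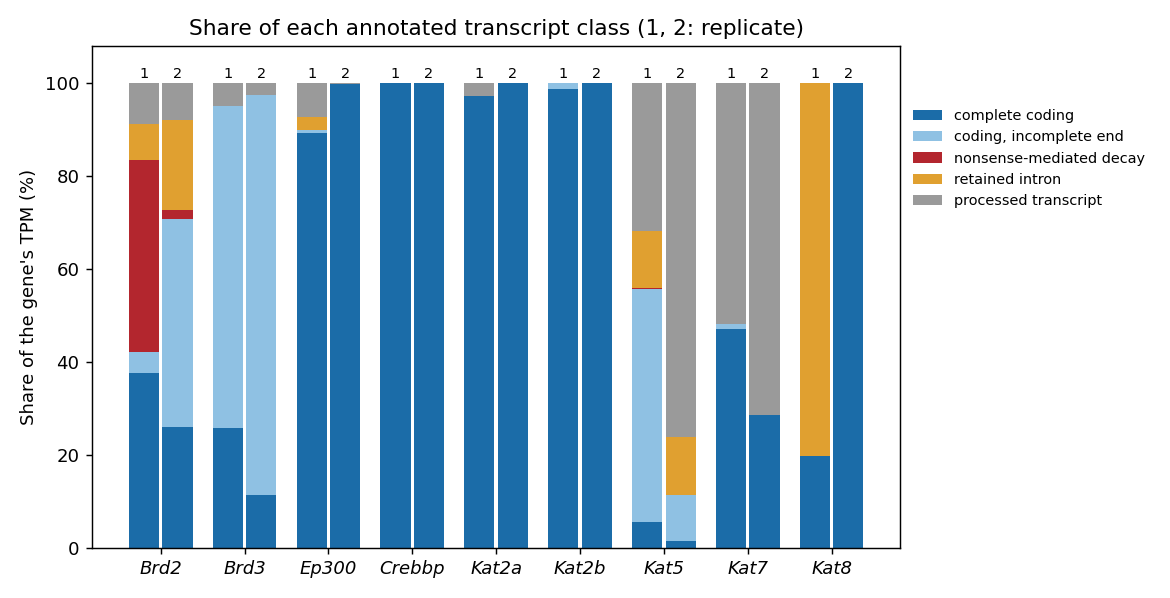
Share of each gene's TPM (%) in 5 classes of annotated transcripts, stacked to 100% for replicate 1 (left bar) and replicate 2 (right bar) of each gene. Ep300, Crebbp, Kat2a and Kat2b consist almost wholly of complete coding transcripts, whereas Kat5 has 5.51% and 1.48% in that class.

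Brd3 was counted by alignment mostly on a form with an unfinished annotation. Brd3-206, whose coding sequence is annotated without its end, held 61.8% of the gene's TPM in replicate 1 and 86.1% in replicate 2, at 35.7 and 16.7 TPM. The complete coding Brd3-210 was at 10.8 and 0.56 TPM, and the 4 complete coding transcripts together were at 14.9 and 2.20 TPM. The read-based table gave the lead to another form, the short processed transcript Brd3-204, at 45.6 and 28.3 TPM, which the alignment-based table had at 1.99 and 0 TPM. Brd3-204 is named here because of these values. An in-frame coding exon of 51 bases (chr2:27453400-27453450, minus strand, mm10) distinguishes Brd3-206 from the complete forms Brd3-201, Brd3-202 and Brd3-210, which skip it. It is shown because its use was similar by both quantification methods:
Brd3 exon: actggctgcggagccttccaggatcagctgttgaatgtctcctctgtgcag
Inclusion was 70.5% in replicate 1 and 88.4% in replicate 2, and 70.6% and 82.2% in the read-based table.

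Ep300 and Crebbp encode the paralogous coactivators p300 and CBP. Ep300 (chr15:81585351-81652077, plus strand) was lower in replicate 1, at 26.5 TPM against 42.4 TPM in replicate 2, and averaged 34.5 ± 11.3 TPM (SD, n = 2). That direction depended on the scale. Read-based values as deposited put Ep300 at 26.9 and 13.6 TPM, and rescaled over nuclear protein-coding genes at 36.3 and 57.2 TPM. Crebbp (chr16:4081328-4213997, minus strand) was at 12.1 and 11.1 TPM, averaging 11.6 ± 0.70 TPM (SD, n = 2), the smallest difference between libraries among the 9 in this table. In the read-based table it differed 3.88-fold between the libraries as deposited, and 1.25-fold once rescaled over nuclear protein-coding genes. Ep300 was therefore above Crebbp in both libraries, by 1.13 and 1.94 log2 units, averaging 1.54 ± 0.57 (SD, n = 2). Both rested on many fragments, 16736 and 4941 expected counts for Ep300 and 9338 and 1464 for Crebbp.

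Nearly all Ep300 signal lay on its single complete coding transcript, Ep300-201, with 89.3% of the gene's TPM in replicate 1 and 99.9% in replicate 2. Crebbp-201 held 100% in both libraries. The read-based table instead gave Crebbp-201 17.8% in replicate 1 and 100% in replicate 2. The remainder in replicate 1 fell on Crebbp-205, a complete coding form that lacks an in-frame exon of 114 bases (chr16:4137366-4137479, minus strand, mm10) in the stretch that codes for the first TAZ zinc finger, a docking surface for transcription factors. Total Crebbp was 12.1 and 11.1 TPM by alignment and 11.8 and 3.05 TPM from reads as deposited, apart in replicate 2 alone. Rescaled over nuclear protein-coding genes, the read-based values were 16.0 and 12.8 TPM, so that gap depended on the scale.

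Kat2a and Kat2b encode GCN5 and PCAF, which replace each other in SAGA and ATAC. Kat2a (chr11:100704746-100712465, minus strand) was lower in replicate 1, at 4.29 TPM against 14.5 TPM in replicate 2, averaging 9.39 ± 7.21 TPM (SD, n = 2). Kat2b (chr17:53566861-53672720, plus strand) was at 5.60 and 9.01 TPM, averaging 7.31 ± 2.41 TPM (SD, n = 2). Kat2b was the higher gene in replicate 1 and Kat2a in replicate 2. The log2 ratio of Kat2a over Kat2b was -0.38 and 0.68, averaging 0.15 ± 0.76 (SD, n = 2), so neither paralog could be placed above the other. In the read-based table as deposited, Kat2a was at 3.29 and 3.48 TPM and Kat2b at 5.05 and 3.26 TPM. Rescaled over nuclear protein-coding genes, Kat2a was at 4.44 and 14.6 TPM and Kat2b at 6.82 and 13.7 TPM. The difference between libraries thus depended on the scale, in direction for Kat2b and in size for Kat2a. Complete coding transcripts made up 97.2% and 100% of Kat2a and 98.8% and 100% of Kat2b.

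Kat2a-201 and Kat2a-202 differ by 3 bases at the start of an exon (chr11:100708983-100708985, minus strand, mm10), where a pair of acceptor sites lie side by side. The transcripts across that junction are shown to make the size of the difference visible, with the added bases in capitals:
Kat2a-202: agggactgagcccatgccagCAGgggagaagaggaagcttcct
Kat2a-201: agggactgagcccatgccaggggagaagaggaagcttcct
Inclusion of the 3 bases was 18.2% in replicate 1 and 0.62% in replicate 2, and 15.5% and 1.33% in the read-based table. The authors' posterior mean gave 20.7% and 43.1%, and their interval for Kat2a-202 in replicate 2 ran from 0.0004 to 11.6 TPM. The split of Kat2a between these forms was thus not resolvable in replicate 2, which had 521 expected counts for the gene.

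**Figure D3:**
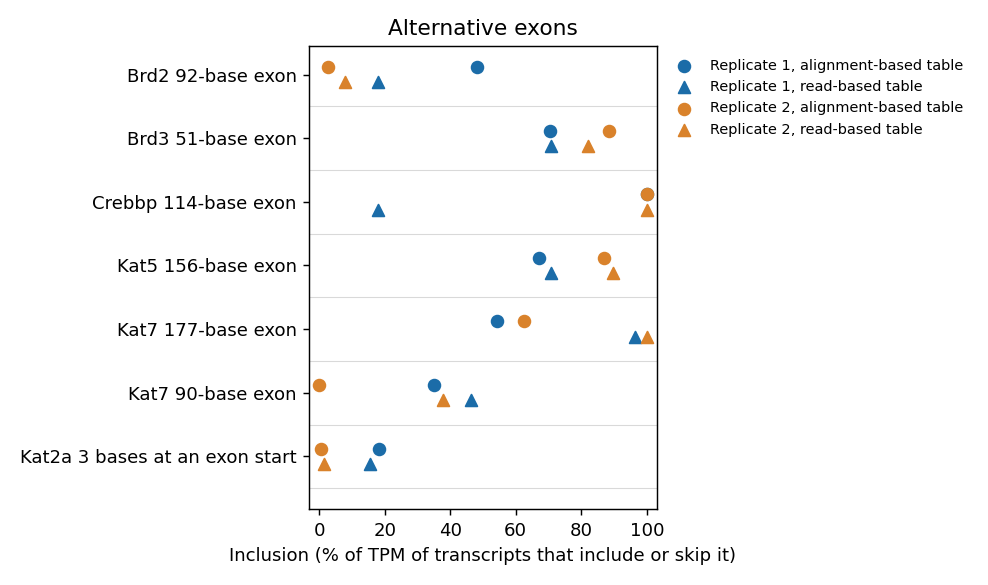
Inclusion (% of the TPM of transcripts that include or skip the exon) for 7 alternative coding segments, in replicate 1 (blue) and replicate 2 (orange), from the alignment-based table (circles) and the read-based table (triangles). The Brd3 and Kat5 exons lie close between tables, and the Crebbp exon lies at 17.9% in the read-based value of replicate 1 and at 100% elsewhere.

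Kat5, the catalytic subunit of the TIP60 complex (chr19:5603014-5610237, minus strand), was second to Brd2 in the main table, at 84.9 TPM in replicate 1 against 55.5 in replicate 2, averaging 70.2 ± 20.8 TPM (SD, n = 2). It came from 3686 and 483 expected counts, fewer than for Crebbp, whose TPM was lower. The effective length that enters its TPM was 599 and 705 bases, with most of the signal placed on short partial forms. The 3 complete coding transcripts of Kat5 were at 4.68 and 0.82 TPM, or 5.51% and 1.48% of the gene. Kat5-209, a processed transcript of 822 bases, led with 27.0 and 42.2 TPM. Kat5-208, a fragment of 366 bases with an unfinished coding sequence, was at 25.1 and 0 TPM, and Kat5-212 was at 17.6 and 5.48 TPM. In the gene table built on the older GENCODE release M4, Kat5 was at 23.4 and 19.7 TPM, below Ep300 at 39.9 and 81.1 TPM. In the read-based table it was at 56.2 and 16.5 TPM, below Brd3 at 92.0 and 38.4 TPM.

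Kat5 overlaps Rnaseh2c, a ribonuclease subunit gene on the opposite strand, by 4006 bases. Rnaseh2c was at 574 and 485 TPM, from 24700 and 5601 expected counts. The sources used here do not state whether strand was used in counting, and without strand the reads of both genes cannot be told apart where they overlap. Rnaseh2c exons cover 426 of the 839 bases of Kat5-212, but none of the bases of Kat5-209 or Kat5-208. Among complete coding forms they cover 423 of the 1905 bases of Kat5-202, the most abundant of them, and 426 bases of Kat5-201. The part of Rnaseh2c in the Kat5 level was not tested.

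An in-frame Kat5 exon of 156 bases (chr19:5608802-5608957, minus strand, mm10) is skipped in the form known as TIP60 beta. It is shown because no Rnaseh2c exon covers it and both methods gave its use alike:
Kat5 exon: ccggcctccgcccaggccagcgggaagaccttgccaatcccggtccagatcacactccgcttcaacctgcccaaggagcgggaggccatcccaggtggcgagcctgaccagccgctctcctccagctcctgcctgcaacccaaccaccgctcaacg
Inclusion was 67.1% in replicate 1 and 87.0% in replicate 2, and 70.7% and 89.6% in the read-based table. By alignment nearly all of the inclusion came from the processed transcript Kat5-209. Among complete coding forms the exon was scarce, with Kat5-201, which has it, at 0.13 and 0 TPM, and Kat5-202, which lacks it, at 4.40 and 0.82 TPM.

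Kat7, the HBO1 acetyltransferase of histone H3 and H4 (chr11:95274259-95310246, minus strand), was at 19.2 TPM in replicate 1 against 13.5 in replicate 2, averaging 16.4 ± 4.03 TPM (SD, n = 2), from 2576 and 221 expected counts. Kat7-208, a processed transcript of 657 bases, held 48.1% and 70.1% of that TPM. The 5 complete coding transcripts together were at 9.05 and 3.86 TPM. They differ in 2 in-frame exons. An exon of 177 bases (chr11:95303133-95303309, minus strand) was included at 54.3% and 62.4%, but at 96.5% and 100% in the read-based table. An exon of 90 bases (chr11:95291520-95291609, minus strand) was included at 35.1% and 0%, against 46.5% and 37.8% in the read-based table. The share of each full-length Kat7 form thus depended on the method.

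Kat8, the MOF acetyltransferase of histone H4 (chr7:127912516-127925837, plus strand), averaged 2.57 ± 1.80 TPM (SD, n = 2) from 270 expected counts in replicate 1 and 23 in replicate 2. In replicate 1 most of it was Kat8-203, a retained-intron RNA, at 3.03 TPM, with the complete coding Kat8-201 at 0.76 TPM. In replicate 2 Kat8-203 was at 0 TPM, with an upper bound of 0.59 TPM in the authors' interval, and Kat8-201 was at 1.29 TPM. Replicate 1 was thus 2.98-fold higher for the gene. Kat8-201, its only complete coding transcript, was lower in replicate 1, but the authors' intervals overlapped, at 0.44 to 1.15 and 0.69 to 1.71 TPM. The read-based table as deposited had Kat8-201 at 0.72 and 0.63 TPM, so the direction for this transcript was not resolved.

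Kat7 was below Kat5 by 2.14 log2 units in replicate 1 and 2.04 in replicate 2 when all transcripts were counted. Over complete coding transcripts the order turned round, with Kat7 above Kat5 by 0.95 and 2.23 log2 units. Kat8 was below Kat5 by 4.47 and 5.43 log2 units over all transcripts. Over complete coding transcripts Kat8 was below Kat5 by 2.62 log2 units in replicate 1 and above it by 0.65 in replicate 2. The place of Kat5 among the MYST genes therefore turned on which annotated transcripts were counted. Kat7 was above Kat8 in both libraries on either scale. Brd2 over Brd3 and Ep300 over Crebbp also kept their direction in each library. Over complete coding transcripts they were at 1.51 and 4.57 and at 0.97 and 1.93 log2 units. Only 2 of the 8 neighbouring pairs had values that did not overlap on this scale, Brd2 above Ep300 and Ep300 above Crebbp.

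**Figure D4:**
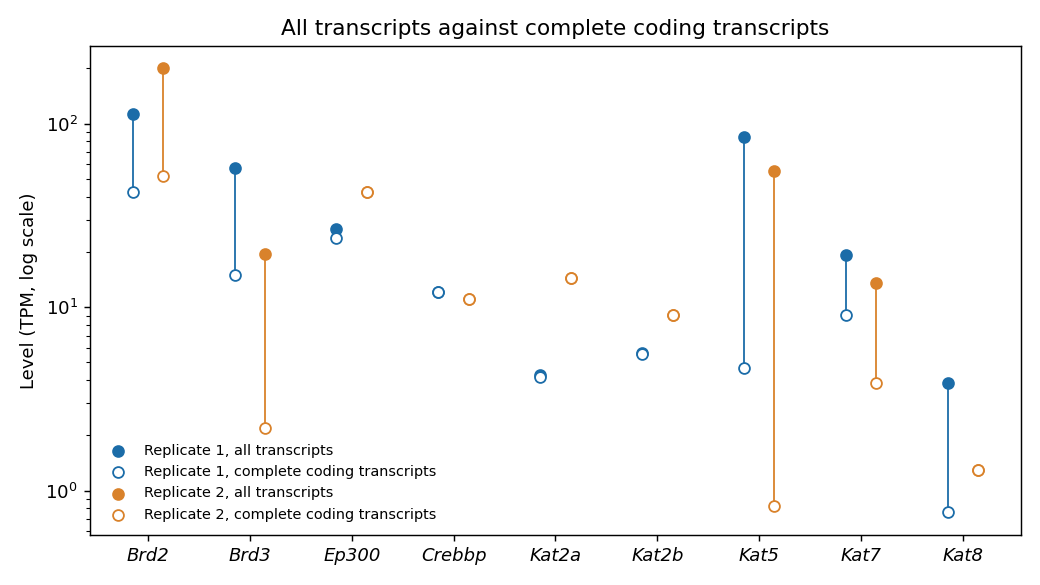
Level in TPM (log axis) over all transcripts (filled) and over complete coding transcripts alone (open) for each gene in replicate 1 (blue) and replicate 2 (orange), joined by a line. The longest lines belong to Kat5, at 84.9 against 4.68 TPM in replicate 1 and 55.5 against 0.82 TPM in replicate 2.

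Between the libraries, 3 of the 9 genes differed over 2-fold in TPM, against 51.0% of 9028 genes whose expected counts averaged 50 or more. Brd3 and Kat8 were higher in replicate 1, against 35.4% of all genes, and Kat2a was lower in replicate 1, against 15.5%. The averaged counts were not scaled to depth, so the deeper replicate 1 weighed more in this filter for all genes. Kat8, at 270 and 23 expected counts, reached the minimum of 50 through replicate 1. Scaled to depth without length correction (CPM), 4 of the 9 were over 2-fold apart, against 51.0%: Kat7 joined Brd3 and Kat8 as higher in replicate 1, against 41.3% of all genes, and Kat2a was again lower, against 9.67%. The median log2 ratio of replicate 1 over replicate 2 was 0.12 over the 9 genes and 0.39 over all genes compared. The authors' intervals did not overlap for 8 of the 9, Crebbp being the exception, against 75.0% of all genes.

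**Figure D5:**
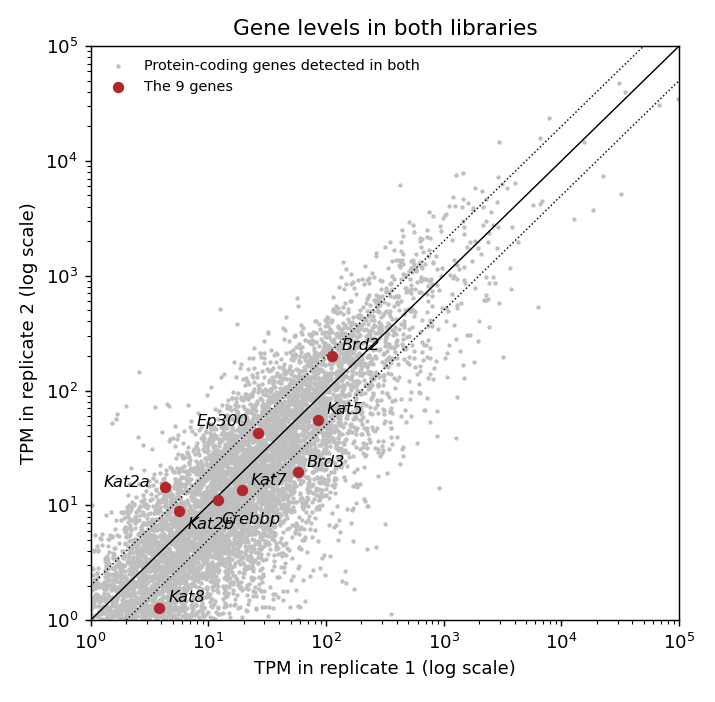
TPM in replicate 1 against TPM in replicate 2 (both log axes) for the protein-coding genes detected in both libraries (grey) and the 9 genes (red). The solid line marks equal levels and the dotted lines 2-fold differences: Brd3 and Kat8 lie below the band, Kat2a above it, and the other 6 within it.

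The setting of these genes was examined in lists of complex subunits, partners, other acetyltransferases and readers, deacetylases and acetyl-CoA supply, which held 123 further genes. Of these 111 were detected, against 33.1% of 22028 protein-coding genes. That share is to be held beside each count of detected genes in the lists below. Among the 119 with enough counts, 42 were over 2-fold higher in replicate 1 and 14 were over 2-fold lower, against 35.4% and 15.5% of all genes, so counts in the lists below are to be read against those shares. Detected protein-coding genes had medians of 20.2 and 15.2 TPM.

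All 17 SAGA subunits were detected, with a median of 25.3 and 10.7 TPM. Taf10, a TBP-associated subunit shared with TFIID, led at 288 and 368 TPM, followed by Taf6l at 44.0 and 52.6 TPM, and Supt3 was lowest at 1.39 and 2.53 TPM. Of the 17, 7 were over 2-fold higher in replicate 1 and 1 was lower, where all genes gave 35.4% and 15.5%. In the ATAC list 8 of 9 were detected. The adaptor Wdr5 was at 41.3 and 31.0 TPM, and Tada3, shared with SAGA, was at 35.3 and 35.9 TPM. Tada2a, the adaptor that marks ATAC in place of SAGA, fell short of detection at 0.68 and 0.94 TPM. Its SAGA counterpart Tada2b, named here for that contrast, was at 12.5 and 24.6 TPM.

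Of 17 TIP60 complex subunits, 16 were detected, and of the 17, all with enough counts, 8 were over 2-fold higher in replicate 1 and 1 was lower, beside 35.4% and 15.5% of all genes. Vps72, a chaperone of histone H2A.Z, was at 253 and 494 TPM, and Morf4l2 was at 432 and 60.6 TPM. Epc2 was lowest at 2.02 and 2.31 TPM. Ruvbl1, an ATPase of the complex, was at 7.65 and 0.16 TPM and so missed detection in replicate 2. Of 9 further subunits of KAT7 complexes, 7 were detected. Brpf3, at 98.5 and 132 TPM, and Jade1, at 36.5 and 17.9 TPM, led, whereas Jade3 was at 0.18 and 0 TPM. In the complexes of KAT8, 11 of 11 MSL and NSL subunits were detected, beside 33.1% of protein-coding genes. Their median was 29.1 and 17.6 TPM, above the level of Kat8 itself. Kansl1, the NSL scaffold, was at 136 and 317 TPM, Hcfc1 was at 120 and 199 TPM, and Ogt, an O-GlcNAc transferase, was lowest at 3.49 and 2.87 TPM.

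All 11 p300 and CBP partners were detected, with a median of 35.8 and 29.4 TPM. Cited4, a transactivator that binds CBP and p300, stood far above the rest at 1609 and 4319 TPM. Carm1, an arginine methyltransferase that acts with p300, was at 91.2 and 126 TPM, and Ncoa1 was lowest at 4.79 and 3.73 TPM. Of 8 genes for the elongation factor P-TEFb and BET partners, 7 were detected. Nsd3, a histone methyltransferase recruited by BET proteins, was at 24.4 and 158 TPM, and Mepce, the capping enzyme of 7SK RNA, was at 81.0 and 97.4 TPM. Ccnt1, a cyclin of P-TEFb, was lowest at 2.50 and 2.57 TPM. Larp7, the 7SK-binding protein, was the undetected gene at 20.6 and 0.77 TPM.

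Among other acetyltransferases 7 of 10 were detected, with Naa60 at 26.6 and 51.4 TPM and Naa40 at 41.3 and 27.9 TPM on top. Hat1, Taf1 and Clock passed 1 TPM in replicate 1 alone, Clock being lowest at 1.45 and 0.33 TPM. Other readers of acetyl-lysine were detected in 20 of 21 cases at a median of 32.7 and 32.1 TPM. Smarca4, the BRG1 ATPase of SWI/SNF, was at 149 and 260 TPM, and Yeats4 was at 83.2 and 156 TPM. Taf1 was lowest at 2.22 and 0.52 TPM. Of 16 deacetylases, which remove the mark, 13 were detected at a median of 19.6 and 23.8 TPM. Sirt2, a largely cytoplasmic deacetylase, led at 536 and 247 TPM, followed by Hdac5 at 136 and 253 TPM, and Hdac9 was listed at 0 in both libraries. All 6 genes for acetyl-CoA supply were detected. Slc25a1, the mitochondrial citrate carrier, was at 144 and 316 TPM, Pdhb, a pyruvate dehydrogenase subunit, was at 89.6 and 11.6 TPM, and Pdha1, another of its subunits, was lowest at 3.09 and 1.76 TPM.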

How the data were processed

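The 2 libraries of polyadenylated RNA formed 1 group (n = 2), with replicate numbers from the labels. Per the deposited file descriptions, reads were placed on mm10, and each library has gene and transcript tables for GENCODE M21 and M4 made from an alignment, and an M21 transcript table made from reads. Aligner, quantifier and strand use are not stated in the sources used here. The authors' expected counts are estimated fragments that were deposited without normalization. Per the file headers, the authors' TPM is a length-corrected abundance per 1000000, as maximum likelihood and posterior mean. The other deposited columns give effective lengths and an interval around the posterior mean, of unstated level.

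The M21 gene and transcript tables were the main source. A gene was detected at 1 TPM or more in both libraries, and fold differences were counted at a mean expected count of at least 50, with a fold threshold of 2. Complete coding transcripts are coding transcripts annotated with both ends. Named genes were the 9, and in each list the 2 highest and the lowest by mean TPM, with transcripts at 10% or more of a gene, unless said otherwise. Members, lists and rules were chosen with earlier results of these data known. Sequences are from GENCODE M21 transcripts on mm10, since the sequence table from RefSeq holds promoters. The counting step was tested on simulated data. Alternatives were the M4 table, the read-based table, posterior means, CPM, edgeR TMM factors and DESeq2 size factors on rounded counts, other thresholds, and each library alone. Python 3.11.15, numpy 2.4.6, pandas 2.3.3, matplotlib 3.10.9, R 4.3.3, edgeR 4.0.16 and DESeq2 1.42.0 were used. With depths of 71485617 and 14121747 counts, replicate 2 carries more counting error.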

Additional observations from a re-analysis of the deposited data

How the results depend on the processing

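With 2 libraries in 1 group, every error here is an SD of 2 values. No paired analysis was possible because there is only 1 group. The count of detected genes stayed between 7 and 9 of 9 in all 9 alternatives, and Brd2 over Brd3 and Ep300 over Crebbp kept their direction in all 8 each. Brd2 over Brd3 was 0.73 with the read-based table, at folds of 1.15 and 2.39. Ep300 over Crebbp was 2.38 with the M4 table. Kat7 over Kat5 was -0.30 with the M4 table, -1.45 with the read-based table, also after rescaling it, -2.01 with posterior means and -0.82 in CPM, and it reversed to 1.59 over complete coding transcripts. Kat8 over Kat5 was -3.45 with the M4 table, -3.79 with the read-based table, also after rescaling, -4.08 in CPM and -0.98 over complete coding transcripts. The complete coding alternative and the exon measures were chosen after seeing the data. The cause of these shifts was not tested. Kat2a over Kat2b, which had no shared sign in the libraries, ran from -0.48 in CPM to 0.15 with the M4 table. Genes over 2-fold apart numbered 5 of 9 with the read-based table, against 77.2% of all genes, all 5 higher in replicate 1, and 6 with the median log2 ratio set to 0, against 51.0%, 2 higher and 4 lower. The other 8 settings gave 2 to 4. The share of all genes beside them was 7.54% with no count filter and 1 added to TPM, where unexpressed genes enter the share. In the rest it was 35.9% to 51.0%. The split of 2 higher and 1 lower became 1 higher and 3 lower with the M4 table and with the rescaled read-based table, and 1 higher and 2 lower with DESeq2 size factors.

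Single libraries gave Brd2 over Brd3 from 0.97 to 3.37, Ep300 over Crebbp from 1.13 to 1.94, Kat2a over Kat2b from -0.38 to 0.68, Kat7 over Kat5 from -2.14 to -2.04 and Kat8 over Kat5 from -5.43 to -4.47. The leading transcript of a gene is the one with the highest mean share, although Brd2-201 led in neither library alone. Its share in the read-based table was 40.6% for Brd2-201, against 31.8% by alignment, 18.1% for Brd3-206, against 74.0%, 82.4% for Ep300-201, against 94.6%, 58.9% for Crebbp-201, against 100%, and 96.9% for Kat2b-201, against 99.4%. With posterior means it was 94.6% for Crebbp-201, 67.5% for Kat2a-201 and 88.8% for Kat2b-201. Depth limited Kat8 most, with 23 expected counts in replicate 2.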
